A study of Micropterus salmoides with 45 samples.

Results

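miR-193a-3p and miR-365-3p are a pair of liver microRNAs (miRNAs) whose levels were followed in largemouth bass (Micropterus salmoides) through 24 h of low oxygen, under the names msa-miR-193a-3p and msa-miR-365-3p (the prefix stands for the species and is left out below). They were picked by name from the 266 miRNAs listed, 2 of 266, because their families lie in 1 cluster in many vertebrates and have roles in lipid metabolism, and because the question was whether they move together. Earlier results of these data were known at that choice, among them the difference of miR-365-3p between severe hypoxia and control at 4 h and at 24 h, so those values are given as a description with no test.

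Small RNA was sequenced from liver of 6-month-old fish held at 20 °C and fasted throughout. Control fish stayed at 7.0 mg/L dissolved oxygen, moderate hypoxia was 3.0 mg/L and severe hypoxia was 1.2 mg/L, with 3 tanks per oxygen level. Oxygen was lowered with nitrogen within 2 h, the end of that step was called 0 h, and livers were taken at 0, 4, 8, 12 and 24 h from fish anaesthetised with MS-222. Oxygen level and hour gave 15 groups of 3 libraries, 45 in all, and the labels tie no library to a tank or fish. The p-values therefore speak of libraries alone, and tank and oxygen level cannot be told apart. Fish of all groups shared the fasting, the temperature and the anaesthetic.

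A miRNA is a short RNA that guides a silencing complex to matching messenger RNAs and lowers their output. Each precursor hairpin can give a 5p and a 3p strand, of which usually 1 accumulates. In mouse, miR-193 and miR-365 precursors lie side by side, and the miR-193b and miR-365 cluster is known from brown fat cell differentiation; in mammals miR-193a is also known as a growth-restraining miRNA. Whether the precursors are clustered in largemouth bass was not tested.

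The deposited values behave as read counts scaled to library size (rpm, reads per mega-read). In all 30 sets of 3 libraries that hold the members (2 miRNAs in 15 groups), 1 value is the mean of the other 2, so each group has 2 measured values, and means ± SD below have n = 2. The depth inferred from the spacing of low values was 1.01 to 5.57 mega-reads, and the 60 measured values of the members correspond to 3 to 252 reads each. The 266 miRNAs of a library summed to between 300084 and 961089 rpm, lowest in control and moderate hypoxia at 24 h. Because this listed total differed between groups, differences were also computed after scaling each library to it, and they are given where this ends or makes a call. Liver identity was checked with miR-122-5p, the hepatocyte miRNA, which lay between 3317 and 39344 rpm (median 6751), and with miR-192-5p, between 3116 and 134018 rpm (median 69956). In bulk liver, fewer cells of a type and less of the miRNA per cell cannot be told apart.

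Both miRNAs were of middling abundance and almost equal. Over the 45 libraries miR-193a-3p averaged 29.7 rpm and miR-365-3p 29.1 rpm (rank 150 of 266). Their range over groups was not alike: the highest group mean was 3.37-fold above the lowest for miR-193a-3p and 20.04-fold for miR-365-3p. After scaling to the listed total these folds were 3.57 and 9.79.

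**Figure D1:**
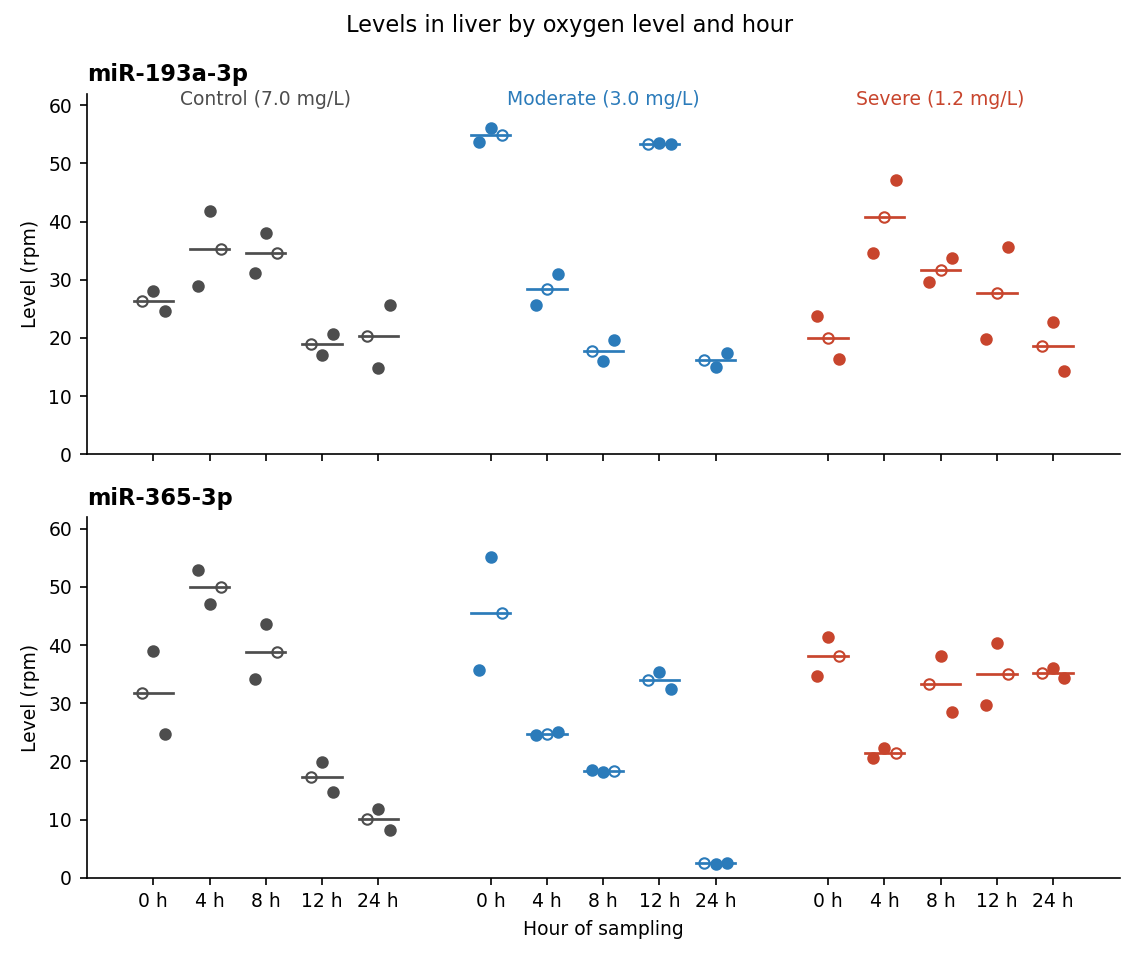
Level in rpm (y axis) of miR-193a-3p (top) and miR-365-3p (bottom) by hour, for control (grey), moderate (blue) and severe hypoxia (red). Filled points are measured libraries, open points are deposited values equal to the mean of the other 2, and bars are group means; miR-365-3p in moderate hypoxia at 24 h sits near 2.50 rpm, below all other groups.

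In control fish miR-193a-3p, as deposited, was highest at 4 h and 8 h and lower later. Its measured values were 24.66 and 28.05 rpm at 0 h, 28.84 and 41.75 at 4 h, 31.15 and 38.11 at 8 h, 17.03 and 20.75 at 12 h, and 14.80 and 25.72 at 24 h. The 12 h libraries lay below all libraries of the earlier hours, while those of 24 h overlapped with 0 h. The change over time had a range of 0.85 log2 between its highest and lowest group mean (limma F-test, adjusted p = 0.0329), in a comparison where 78.4% of tested miRNAs changed. That call was lost without control library 2 at 4 h, 8 h, 12 h or 24 h (limma adjusted p 0.0665 to 0.0897). The order turned after scaling to the listed total, which was lowest at 24 h: that hour then led (60.4 ± 15.7 in rescaled rpm), above 4 h (47.1 ± 11.5) and 8 h (45.04 ± 7.13), and 12 h stayed lowest (23.99 ± 2.85).

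miR-365-3p followed a steeper course in the same control fish as deposited. It measured 24.66 and 38.94 rpm at 0 h, 47.06 and 52.92 at 4 h, 34.15 and 43.56 at 8 h, 14.70 and 19.87 at 12 h, and 8.27 and 11.84 at 24 h. Both 4 h libraries were above all other control libraries and both 24 h libraries were below them. The range was 2.22 log2 (limma F-test, adjusted p = 2.80e-06). After the listed total 4 h still led (66.9 ± 6.58 in rescaled rpm), but 12 h was lowest (22.0 ± 5.11) and overlapped with 24 h (31.2 ± 11.6), and the range was 1.55 log2 (limma adjusted p = 0.000735). The control libraries at 4 h and 24 h were part of the differences known at the choice, so neither p is an independent test. Since control fish changed over time, each hypoxia group below is compared with the control of its own hour.

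In moderate hypoxia miR-193a-3p, as deposited, alternated between high and low hours. It measured 53.62 and 56.03 rpm at 0 h, 25.73 and 31.03 at 4 h, 15.98 and 19.64 at 8 h, 53.28 and 53.49 at 12 h, and 15.08 and 17.43 at 24 h. On that scale the groups at 0 h and 12 h were the highest of all 15. The range was 1.70 log2 (limma F-test, adjusted p = 4.38e-05), where 85% of tested miRNAs changed over time. After the listed total 0 h still led all groups (85.5 ± 0.439 in rescaled rpm), but 12 h (56.2 ± 0.815) was close to 4 h (57.2 ± 3.47) and below control at 24 h, 8 h was the lowest moderate hour (41.7 ± 3.03), and the range was 1.01 log2 (limma adjusted p = 0.0220).

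miR-365-3p in moderate hypoxia measured 35.75 and 55.14 rpm at 0 h, 24.53 and 25.06 at 4 h, 18.15 and 18.59 at 8 h, 32.46 and 35.43 at 12 h, and 2.38 and 2.61 at 24 h. The 24 h values stood for 3 reads in each measured library and were the lowest of all 15 groups. The range was 3.70 log2 (limma F-test, adjusted p = 3.46e-09).

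In severe hypoxia miR-193a-3p measured 16.32 and 23.68 rpm at 0 h, 34.56 and 47.08 at 4 h, 29.65 and 33.80 at 8 h, 19.76 and 35.54 at 12 h, and 14.34 and 22.72 at 24 h. As deposited it peaked at 4 h, with a range of 1.12 log2 (limma F-test, adjusted p = 0.0198), where 63.3% of tested miRNAs changed. After the listed total the range was 0.68 log2 (limma adjusted p = 0.0914), and without severe library 3 at 4 h or at 24 h the adjusted p from limma was 0.103 or 0.0586.

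miR-365-3p in severe hypoxia measured 34.68 and 41.42 rpm at 0 h, 20.65 and 22.38 at 4 h, 28.46 and 38.13 at 8 h, 29.64 and 40.39 at 12 h, and 34.26 and 36.06 at 24 h. Its 4 h libraries were below those of all other hours, the hour at which miR-193a-3p was highest. The range of 0.79 log2 did not pass (limma F-test, adjusted p = 0.0830), but scaled to the listed total it was 1.21 log2 and passed (limma adjusted p = 0.00555). The severe libraries at 4 h and 24 h were part of the differences known at the choice, so neither p is an independent test.

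Between neighbours in the order of the 15 group means as deposited, measured ranges mostly overlapped. For miR-193a-3p, moderate hypoxia at 0 h (54.8 rpm ± 1.70) and at 12 h (53.4 ± 0.148) led and lay apart from the next group, severe hypoxia at 4 h (40.8 ± 8.85). From there down to moderate hypoxia at 24 h (16.3 ± 1.66) neighbours overlapped. For miR-365-3p, the order ran from control at 4 h (49.99 ± 4.14) down to moderate hypoxia at 24 h (2.50 ± 0.163), with most breaks at its low end, where control at 12 h (17.3 ± 3.66), control at 24 h (10.1 ± 2.52) and moderate hypoxia at 24 h did not overlap.

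Severe hypoxia against control asked whether the members respond to 1.2 mg/L at matched hours. miR-365-3p was lower than control at 4 h and higher at 12 h and 24 h, and miR-193a-3p passed the test at none of the 5 hours. At 4 h miR-365-3p was at 20.65 and 22.38 rpm in severe hypoxia against 47.06 and 52.92 in control, a log2 difference of -1.18 (SE 0.27). The groups lay far apart, with 134 against 320 reads in all and a counting ratio of 0.433 (95% interval 0.351 to 0.531, counting error only). In that comparison 6.33% of tested miRNAs were called, and as the member was chosen with this value known nothing is read from it.

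At 12 h miR-365-3p was at 29.64 and 40.39 rpm against 14.70 and 19.87 in control. The groups did not overlap, and the log2 difference was 0.98 (SE 0.27, limma adjusted p = 0.00684), where 32.4% of tested miRNAs were called and 9.86% were called higher. The median of all tested miRNAs at this hour was -0.23 log2. The call was lost without control library 3 (limma adjusted p = 0.0869) or severe library 2 (limma adjusted p = 0.0963).

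At 24 h miR-365-3p was at 34.26 and 36.06 rpm in severe hypoxia against 8.27 and 11.84 in control. The log2 difference was 1.73 (SE 0.27), the widest of the 5 hours, and the counting ratio was 3.54 (2.21 to 5.94, from 116 against 21 reads). In this comparison 33.8% of tested miRNAs were called, 27.7% were called higher, and the median of all tested was 0.45 log2. The difference was 1.09 log2 after the listed total, and with median-of-ratios scaling it was 1.28 log2, so it stayed above 0 on each scale.

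At the same hour miR-193a-3p was at 14.34 and 22.72 rpm against 14.80 and 25.72 in control, ranges that overlapped (-0.11 log2, 95% interval -0.75 to 0.54, limma adjusted p = 0.809). Scaled to the listed total it was lower by 0.77 log2 in severe hypoxia than in control (-0.77, limma adjusted p = 0.0356). With median-of-ratios scaling it was -0.58 log2 and did not pass (limma adjusted p = 0.124). After the listed total the members went opposite ways at 24 h. Most summed lists of cell markers also differed at 24 h. The endothelial, leukocyte, hepatocyte, pancreas, epithelial and muscle sums were all higher in severe hypoxia than in control, without overlap. Only the summed stromal, neuron and erythrocyte miRNAs overlapped between these groups. The summed level of the 4 of 4 endothelial miRNAs (the miR-126 arms) was 20006 to 21812 rpm in severe hypoxia and 5357 to 6916 in control, and that of the leukocyte list was 2807 to 3120 (6 of 6 above 0) against 1253 to 2266 (5 of 6, with miR-150-5p at 0). The 7 hepatocyte miRNAs summed to 91553 to 94977 against 38730 to 57894 rpm, and the listed total was 524255 to 539699 against 300084 to 359347 rpm. Their part in the result was not tested.

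At the other hours no difference from control passed for either miRNA in severe hypoxia. For miR-193a-3p the values were -0.40 log2 at 0 h (limma adjusted p = 0.493), 0.21 at 4 h (0.777), -0.12 at 8 h (0.831) and 0.48 at 12 h (0.252), each with SE 0.31. The 12 h value passed with median-of-ratios scaling (0.75 log2, limma adjusted p = 0.0418). For miR-365-3p the values were 0.28 log2 at 0 h (limma adjusted p = 0.614) and -0.22 at 8 h (0.605). Of all tested miRNAs, 7.8% were called at 0 h and 23.6% at 8 h.

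As a mean over the 5 hours, miR-193a-3p in severe hypoxia was 0.01 log2 from control (95% interval -0.28 to 0.30, limma adjusted p = 0.964). Of all tested miRNAs 26.4% were called. For miR-365-3p the mean was 0.32 log2 (SE 0.12). It holds the 4 h and 24 h values known at the choice, so no test is given, and it combines hours of opposite sign: without 24 h it was -0.04 log2 and without 4 h it was 0.69.

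Against control of the same hour, miR-193a-3p passed the test at 3 of 5 hours in moderate hypoxia. It was higher than control at 0 h and 12 h and lower at 8 h. At 0 h it was at 53.62 and 56.03 rpm against 24.66 and 28.05, without overlap, a log2 difference of 1.03 (SE 0.31, limma adjusted p = 0.0260), where 17.1% of tested miRNAs were called and the median of all was 0.31 log2. With median-of-ratios scaling it was 0.65 log2 and did not pass (limma adjusted p = 0.119). The call was also lost without control library 2 or 3 or moderate library 1 or 2 (limma adjusted p 0.0541 to 0.139).

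At 12 h miR-193a-3p was at 53.28 and 53.49 rpm against 17.03 and 20.75 in control. The log2 difference was 1.46 (SE 0.31, limma adjusted p = 0.00994), a 2.83-fold higher mean, and only 3.21% of tested miRNAs were called in this comparison. It passed on each scale (1.18 log2 after the listed total and 1.26 with median-of-ratios scaling). It did not pass without control library 2, moderate library 2 or moderate library 3 (limma adjusted p 0.0695, 0.0799 and 0.0623). Summed leukocyte miRNAs were also higher in moderate hypoxia at both hours (6 of 6 above 0 in all 4 groups). They were at 3733 to 4865 rpm against 2019 to 2435 at 0 h and 5960 to 6455 against 2824 to 3596 at 12 h. So were summed epithelial miRNAs, at 2639 to 2699 against 1433 to 1626 rpm at 0 h. At 12 h these were at 2376 to 2670 against 1940 to 2134 rpm. No other list was higher at both hours without overlap. Hepatocyte miRNAs were lower at 0 h (64610 to 75141 against 89326 to 97599 rpm). At 12 h they were higher (129250 to 148717 against 114731 to 121431 rpm). The part of any of these lists in the result was not tested.

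miR-365-3p had the same sign at these hours but did not pass. It was 0.50 log2 above control at 0 h (limma adjusted p = 0.166). At 12 h its measured values of 32.46 and 35.43 rpm lay above 14.70 and 19.87 in control, a difference of 0.95 log2 (SE 0.27, limma adjusted p = 0.0549). Severe hypoxia gave a similar difference at that hour (0.98 log2, SE 0.27), which passed. The limma p before adjustment was 0.00202 in moderate and 0.00157 in severe hypoxia. The hypoxia levels themselves differed by 0.03 log2 at 12 h (limma adjusted p = 0.965), so the calls do not tell them apart.

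At 8 h both miRNAs were lower in moderate hypoxia as deposited. miR-193a-3p was at 15.98 and 19.64 rpm against 31.15 and 38.11 (-0.92 log2, limma adjusted p = 0.0289). miR-365-3p was at 18.15 and 18.59 rpm against 34.15 and 43.56 (-1.03 log2, limma adjusted p = 0.00637). Neither pair of groups overlapped, but 34% of tested miRNAs were called at this hour, nearly all of them lower (33.5%), and the median of all was -0.56 log2. Scaled to the listed total the differences were -0.10 log2 (limma adjusted p = 0.885) and -0.24 log2 (0.688), and with median-of-ratios scaling -0.38 (0.568) and -0.49 (0.362). For miR-193a-3p the call was lost without control library 1 or 2 or moderate library 2 (limma adjusted p 0.0615, 0.135 and 0.158), and for miR-365-3p without control or moderate library 2 (0.0620 and 0.0502).

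At 4 h miR-365-3p was lower in moderate hypoxia, at 24.53 and 25.06 rpm against 47.06 and 52.92 (-0.98 log2, SE 0.27, limma adjusted p = 0.00732). Here 37% of tested miRNAs were called and the median of all was -0.51 log2. The control libraries at this hour were part of the difference known at the choice, so the p of miR-365-3p is no independent test. The difference after the listed total was -0.40 log2 (limma adjusted p = 0.311), and with median-of-ratios scaling it was -0.45 (0.243). miR-193a-3p at 4 h, with -0.29 log2 (limma adjusted p = 0.488), changed sign to 0.29 after the listed total. Hepatocyte miRNAs (7 of 7 above 0) were lower in moderate hypoxia at both hours. They were at 16724 to 55182 rpm against 105754 to 117949 at 4 h and 49609 to 57812 against 85041 to 107758 at 8 h. Leukocyte miRNAs were lower too, at 1344 to 2355 against 3982 to 4509 rpm and 1636 to 1707 against 2766 to 2843. So were epithelial miRNAs, at 617 to 1302 against 2300 to 2603 rpm and 1290 to 1374 against 2063 to 2299. The other lists overlapped with control at 1 or both hours. The listed total was lower as well, at 433628 to 519855 against 739872 to 763808 rpm at 4 h and 403891 to 471494 against 760957 to 848065 at 8 h. Their part in the result was not tested.

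At 24 h miR-365-3p was lower in moderate hypoxia, at 2.38 and 2.61 rpm against 8.27 and 11.84. The groups did not overlap, and the log2 difference was -1.64 (SE 0.27, limma adjusted p = 0.000184), where 20.2% of tested miRNAs were called, 11.1% were called lower, and the median of all was -0.04 log2. The difference rests on 6 against 21 reads, a counting ratio of 0.250 (95% interval 0.0824 to 0.639). It was -1.85 log2 after the listed total (limma adjusted p = 6.77e-05) and passed with any 1 library left out. The control libraries at this hour were part of the difference known at the choice, so neither p is an independent test. miR-193a-3p at 24 h overlapped with control (-0.26 log2, limma adjusted p = 0.609; 39 against 43 reads, counting ratio 0.792, 0.500 to 1.25).

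**Figure D2:**
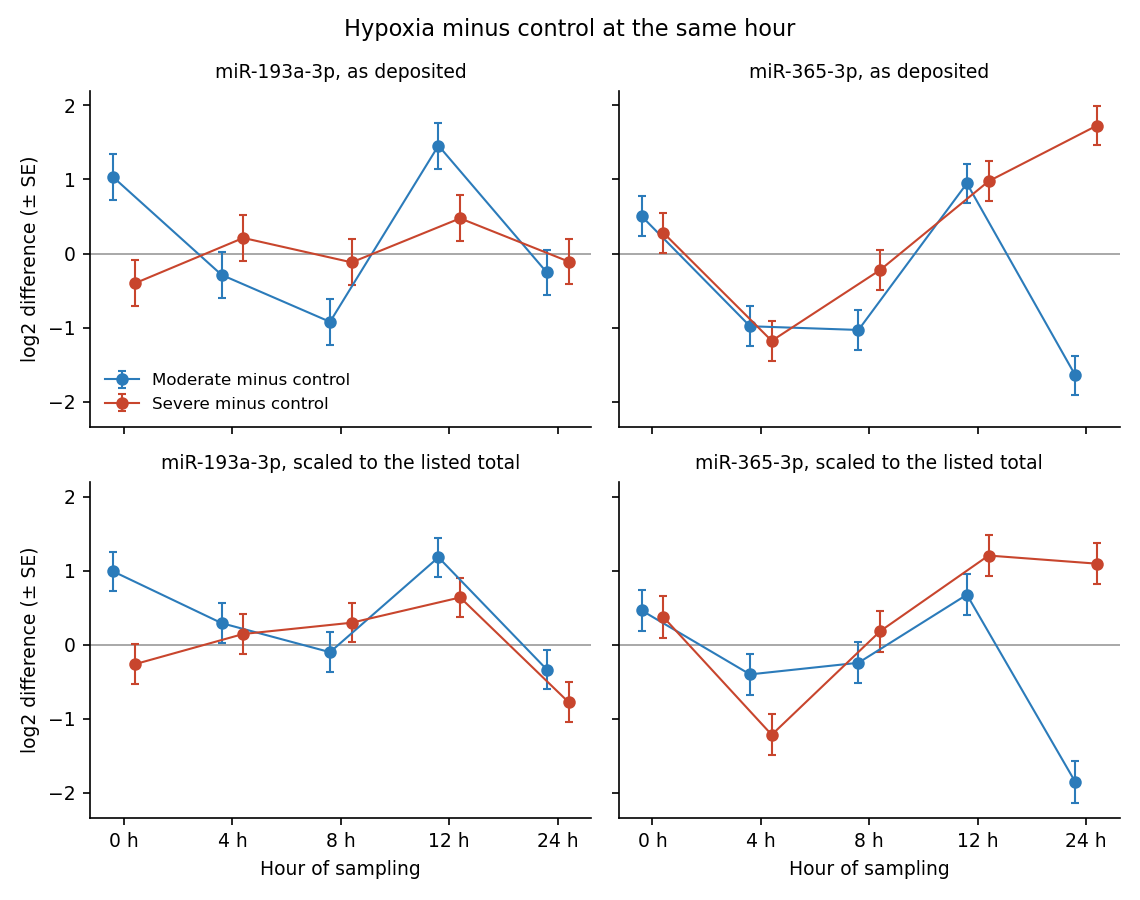
Log2 difference from control of the same hour (y axis, ± SE) by hour of sampling, for moderate (blue) and severe hypoxia (red), as deposited (top) and scaled to the listed total (bottom). At 24 h miR-365-3p lies at 1.73 in severe and -1.64 in moderate hypoxia as deposited; both hypoxia levels share the control libraries.

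As a mean over hours, miR-365-3p in moderate hypoxia was below control (-0.44 log2, SE 0.12, limma adjusted p = 0.00943), where 37.6% of tested miRNAs were called. miR-193a-3p was at 0.20 log2 (95% interval -0.08 to 0.49, limma adjusted p = 0.290). With the spread between hours as the error the call of miR-365-3p ended (limma adjusted p = 0.773). Its mean was -0.27 after the listed total (limma adjusted p = 0.121) and -0.14 without 24 h (0.471). It also missed the threshold without 4 h (-0.31, limma adjusted p = 0.0994) and without 8 h (-0.29, 0.116). Its control libraries at 4 h and 24 h were part of the differences known at the choice. The mean of miR-193a-3p passed after the listed total (0.41 log2, limma adjusted p = 0.0204) and without 8 h (0.49, 0.0312), and was near 0 without 0 h (-0.0017) and -0.11 without 12 h. It did not pass with median-of-ratios scaling (0.30 log2, limma adjusted p = 0.0787) or with the spread between hours as the error (0.20, 0.928).

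Severe against moderate hypoxia tested directly whether the hypoxia levels differ. miR-365-3p at 24 h had the widest difference of the pair, 3.37 log2 (SE 0.27, limma adjusted p = 6.17e-09), with 34.26 and 36.06 rpm in severe and 2.38 and 2.61 in moderate hypoxia. The severe libraries at this hour were known to be high when the pair was chosen, so this p is no independent test. The counting ratio was 14.2 (6.33 to 39.5, from 116 against 6 reads), the difference after the listed total was 2.95 log2, and 31.2% of tested miRNAs were called. miR-193a-3p at the same hour differed by 0.15 log2 (95% interval -0.50 to 0.79, limma adjusted p = 0.719).

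miR-193a-3p was lower in severe than in moderate hypoxia at 0 h, at 16.32 and 23.68 against 53.62 and 56.03 rpm. The groups did not overlap, and the difference of -1.43 log2 (limma adjusted p = 0.00356, 23.6% called) passed on each scale. It was also lower at 12 h, at 19.76 and 35.54 against 53.28 and 53.49 rpm (-0.98 log2, limma adjusted p = 0.0181, 37.3% called). The 12 h difference did not pass after the listed total (-0.54 log2, limma adjusted p = 0.156) or with median-of-ratios scaling (-0.51, 0.202), nor without moderate library 2 or 3 or severe library 1 (0.0735, 0.0740 and 0.230). The other differences between hypoxia levels did not pass as deposited. For miR-193a-3p they were 0.50 log2 at 4 h (31.1% called) and 0.80 at 8 h (11.2% called, limma adjusted p = 0.0924). For miR-365-3p they were -0.22 at 0 h, -0.20 at 4 h (-0.82 after the listed total, limma adjusted p = 0.0357), 0.81 at 8 h (0.0565) and 0.03 at 12 h. The severe libraries of miR-365-3p at 4 h were part of the difference known at the choice, so the 4 h p is no independent test.

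Whether the pair moves together depended on the scale. Over the 15 group means of log2(rpm + 1) as deposited, Pearson's r was 0.56 (permutation p = 0.0228) and Spearman's rho 0.58 (permutation p = 0.0260). The group means hold the control and severe values of miR-365-3p at 4 h and 24 h that were known at the choice. No permutation p of the pair's r or rho is therefore an independent test. Without the 2 groups farthest from the median of miR-193a-3p, moderate hypoxia at 0 h and 12 h, r was 0.55 (permutation p = 0.0371). Scaled to the listed total, r was 0.14 (permutation p = 0.599) and rho 0.01, and with median-of-ratios scaling r was 0.09 (permutation p = 0.736) and rho -0.11. The 2 miRNAs of a library share the denominator of rpm, which is not given, and the listed total differed between groups. On the listed total, r without the 2 farthest groups on that scale, moderate hypoxia at 0 h and control at 12 h, was -0.32. As deposited, r fell to 0.49 without moderate hypoxia at 24 h (permutation p = 0.0698), to 0.52 without all 24 h groups (0.0835) and to 0.54 without the 8 h groups (0.0599).

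The same pattern held over the 25 single libraries in which both miRNAs are measured, with r of 0.58 as deposited and 0.17 after the listed total. These libraries are not independent of their groups, so no p is given. Within groups, 10 had both members measured in the same 2 libraries, which cancels oxygen and hour. As deposited, both miRNAs were higher in the same library in 7 of the 10. In the other 3, the control groups at 4 h, 12 h and 24 h, they went opposite ways. After the listed total, moderate hypoxia at 4 h and 12 h also went opposite ways. At 4 h miR-193a-3p was at 54.8 and 59.7 where miR-365-3p was at 52.2 and 48.2 in rescaled rpm. The 12 h values were 55.7 and 56.8 for miR-193a-3p beside 36.9 and 34.6. The count as deposited therefore also depends on the scale.

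**Figure D3:**
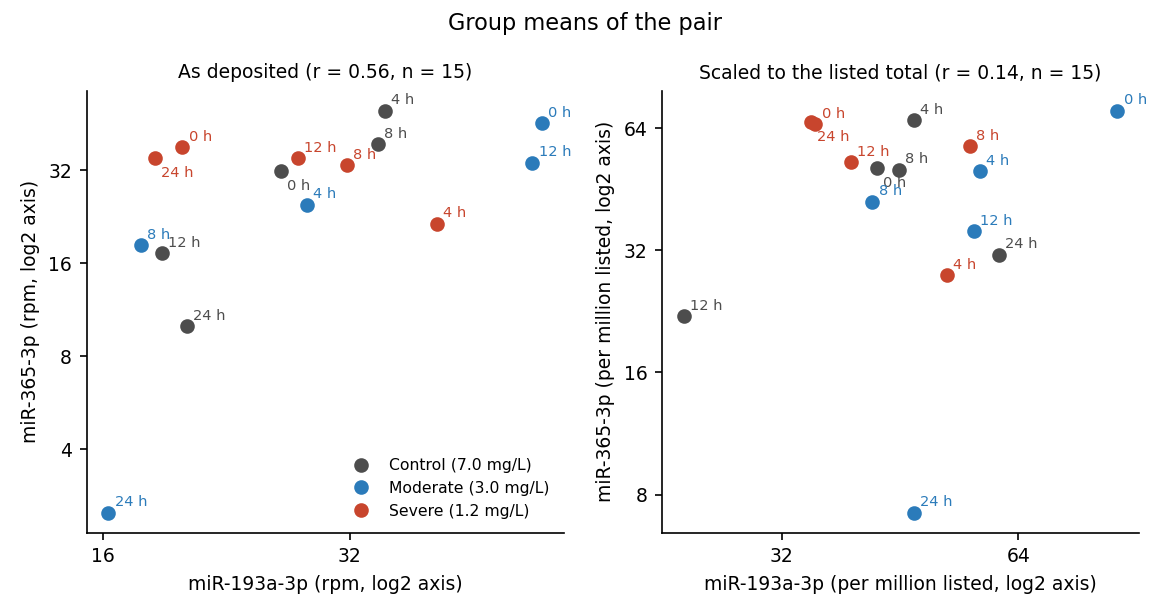
Group means of miR-193a-3p (x axis) against miR-365-3p (y axis) on log2 axes, as deposited in rpm (left) and scaled to the listed total (right), coloured by oxygen level and marked with the hour. The upward slope on the left (r = 0.56) is weak on the right (r = 0.14), and moderate hypoxia at 24 h lies below all other groups on both.

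By oxygen level the pair went different ways. As deposited, both were highest at 4 h and 8 h in control fish. On the same scale both were highest at 0 h and 12 h and lowest at 24 h in moderate hypoxia. In severe hypoxia, as deposited, miR-193a-3p was highest at 4 h (40.8 rpm ± 8.85) where miR-365-3p was lowest (21.5 ± 1.22). miR-193a-3p was lowest at 24 h (18.5 ± 5.93), where miR-365-3p remained at 35.2 ± 1.27. Apart from 4 h, the severe libraries of miR-365-3p overlapped between hours, so no order is read from them. The control and severe values of miR-365-3p at 4 h and 24 h were part of the differences known at the choice, so this is a description only. After the listed total miR-193a-3p led at 24 h in control and at 8 h in severe hypoxia, and miR-365-3p remained lowest at 4 h in severe hypoxia. In moderate hypoxia miR-193a-3p was then lowest at 8 h (41.7 ± 3.03 in rescaled rpm), with 24 h at 47.1 ± 7.59. There miR-365-3p at 12 h (35.7 ± 1.59) was below 4 h (50.2 ± 2.84) and 8 h (42.2 ± 3.90), and 24 h stayed lowest (7.22 ± 0.897). With 5 hours per oxygen level no correlation is given.

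The ratio of miR-365-3p to miR-193a-3p within a library does not depend on the denominator. On the log2 scale it was 0.24 ± 0.33 in control at 0 h, 0.52 ± 0.50 at 4 h, 0.16 ± 0.04 at 8 h, -0.14 ± 0.51 at 12 h and -0.98 ± 0.93 at 24 h (n = 2 libraries each). In moderate hypoxia it was -0.30 ± 0.40, -0.19 ± 0.17, 0.18 (1 library), -0.65 ± 0.09 and -2.70 ± 0.05 at the same hours. In severe hypoxia it was 0.55, -0.74, -0.25 and 0.58 at 0 h to 12 h (1 library each) and 0.96 ± 0.42 at 24 h. The ratio of moderate hypoxia at 24 h rests on 3 miR-365-3p reads in each library, so its small SD leaves out the counting error.

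Moderate hypoxia thus held less miR-365-3p per miR-193a-3p than control at 4 of 5 hours. The mean difference over hours was -0.69 log2 (exact permutation test within hours, two-sided, p = 0.00180, adjusted over the 2 comparisons 0.00360). Without 24 h it was -0.44 and without 4 h it was -0.69 (exact permutation p = 0.0108 each). The control libraries of miR-365-3p at both hours were part of the differences known at the choice, so the p of the mean over hours is no independent test. In severe hypoxia the mean difference was 0.26 log2 (exact permutation p = 0.496, adjusted 0.496), higher at 3 of 5 hours, and without 24 h it was -0.16. It holds both the severe and the control values of miR-365-3p known at the choice, at 4 h and 24 h, so its p is no independent test either. At 24 h the ratio of group means was 0.496 in control, 0.153 in moderate and 1.90 in severe hypoxia.

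**Figure D4:**
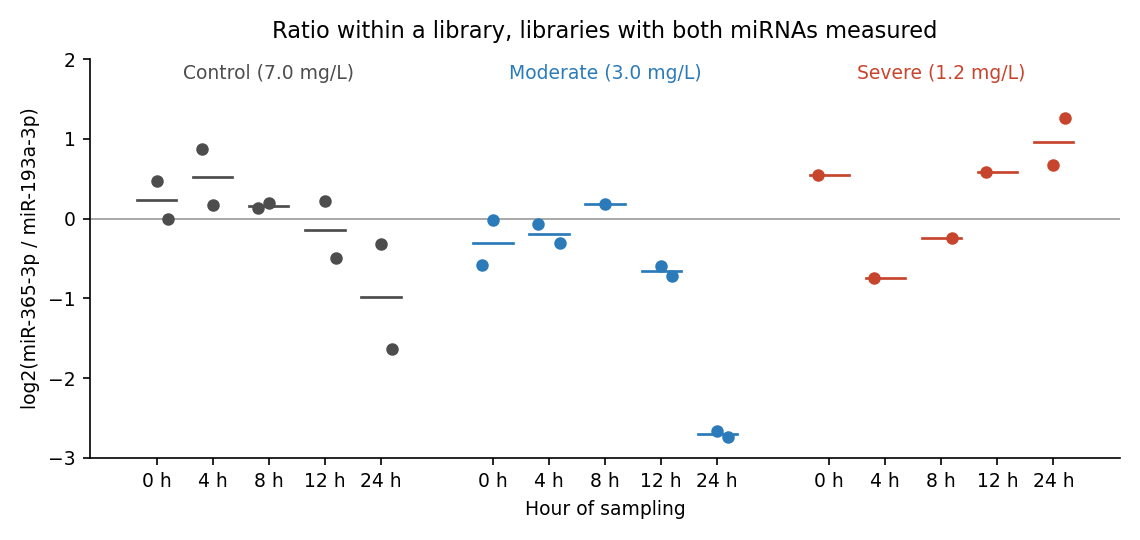
Log2 ratio of miR-365-3p to miR-193a-3p (y axis) by hour for control (grey), moderate (blue) and severe hypoxia (red). Each point is a library with both miRNAs measured and bars are group means. At 24 h the moderate libraries, with 3 miR-365-3p reads each, lie near -2.70 and the severe ones near 0.96.

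Other miRNAs resembled each member more than the members resembled each other. Among 151 miRNAs that averaged 10 rpm or more and had a value in every group, r over the 15 groups with miR-193a-3p was highest for miR-16b-5p (0.84), miR-16a-5p (0.82) and miR-27b-5p (0.80). With miR-365-3p it was highest for miR-125b-5p (0.87), miR-16a-5p (0.85) and miR-100-5p (0.84). Each member held rank 51 of 151 in the other's order. The median r of all 151 was 0.49 with miR-193a-3p and 0.48 with miR-365-3p as deposited, beside the 0.56 of the pair, and after the listed total the medians were 0.09 and 0.01. On that scale miR-16b-5p (0.73) and miR-125b-5p (0.77) still ranked the highest.

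Other pairs, named after precursor clusters of vertebrates, gave a rough scale for reading the pair. They were matched by name, and whether they are clustered in largemouth bass was not tested. Where the exact name was not listed, the most abundant row of the same number stood in, such as miR-130c-3p and miR-16b-5p. The pairs are not independent, as miR-27b-3p and miR-216a-5p each enter more than 1. For 18 such pairs measured in all 15 groups the median r was 0.60 as deposited, and 10 of the 18 were above the members' 0.56. After the listed total the median was 0.34, and 14 of 18 were above the members' 0.14. Pairs such as miR-182-5p with miR-183-5p (0.91) and miR-100-5p with miR-125b-5p (0.82) were high on that scale, while miR-130c-3p with miR-301a-3p was at -0.55.

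**Figure D5:**
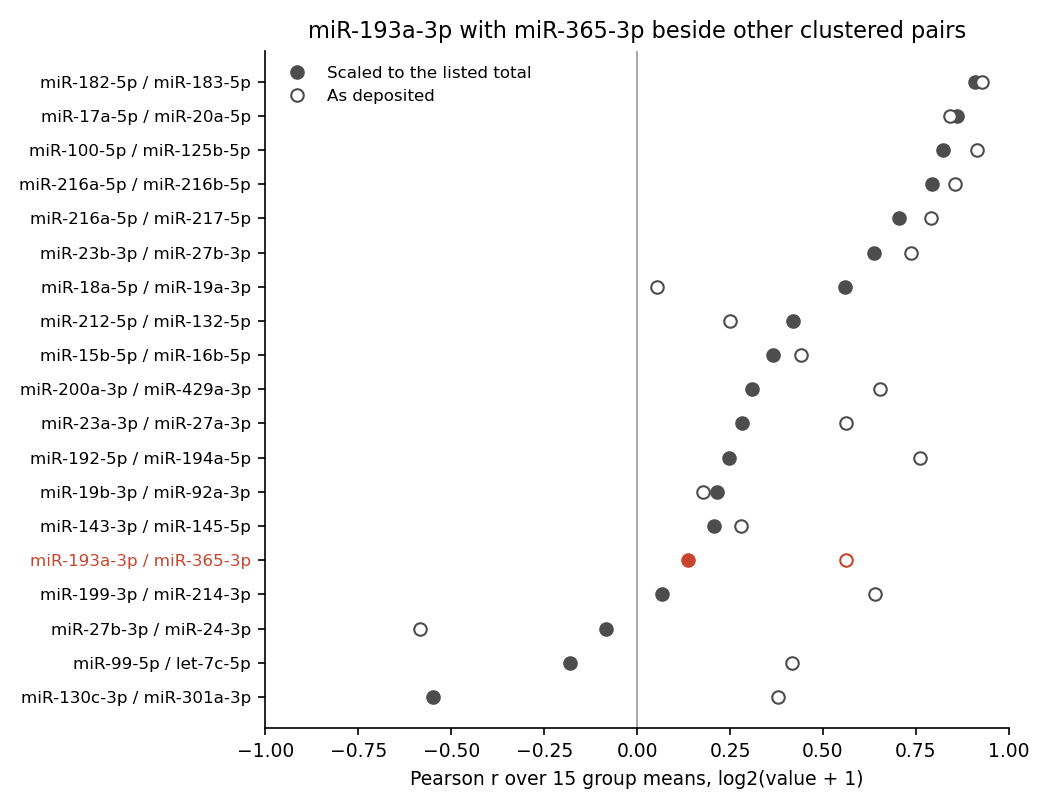
Pearson r over 15 group means of log2(value + 1) (x axis) for 18 pairs matched by name to vertebrate clusters and for miR-193a-3p with miR-365-3p (red), as deposited (open) and scaled to the listed total (filled). The members lie at 0.56 and 0.14, with 14 of the 18 pairs above them after scaling.

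The members belong to a list of 59 rows matched by number to miRNAs tied to lipid metabolism or fat cell differentiation in mammals. Matching by number takes in both strands and all paralogues, so a row of the list need not have such a role itself. In severe hypoxia, as a mean over hours, 9 of its 50 tested miRNAs were higher and 6 lower, beside 11.4% higher and 14.9% lower of all tested, and the list's median was -0.0006 log2 against -0.02 for all. miR-122-3p, a strand of the hepatocyte miRNA precursor, was higher by 0.91 log2 (limma adjusted p = 1.86e-05). miR-27c-5p was higher by 0.86 (limma adjusted p = 0.000319) and miR-30a-3p was lower (-0.82, 0.000319). The single hours had the sign of the mean at 4 of 5 hours for miR-122-3p, 5 for miR-27c-5p and only 3 for miR-30a-3p. In moderate hypoxia 3 of 48 were higher and 16 lower, beside 6.09% and 31.5% of all, with medians of -0.19 and -0.17 log2, and after the listed total 6 were higher and 2 lower, beside 9.64% and 7.11% of all. miR-30a-3p was lower there too (-1.06 log2, limma adjusted p = 2.67e-05). miR-30a-5p (-0.48) and miR-30e-5p (-0.44) were called as deposited (limma adjusted p = 0.000833 and 0.00180) but not after the listed total (0.0634 and 0.102).

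The opposite strands and the other paralogue were at trace levels. miR-193a-5p reached at most 1.65 rpm and miR-365-5p at most 1.26 rpm, and the mean of the 3p strand over the 45 libraries was 37.3-fold and 55.0-fold that of the 5p strand. miR-193b-3p, the paralogue clustered with miR-365 in mouse brown fat, was listed at 0 in all libraries of 12 groups and reached at most 1.41 rpm. Some of these values were deposited identically for all 3 libraries of a group and cannot be tied to a library, and the others stood for 1 to 3 reads each, so no comparison between groups is made.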

How the data were processed

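The deposited values behave as rpm: a median of 98.1% of a library's low values (12 rpm or less; lowest library 83.6%) were whole multiples of 1 step within 0.006 rpm, from which depth in mega-reads was inferred, and the 60 measured member values were whole reads within 0.1 read. For the rpm deposited by the authors, the aligner, genome build and denominator were not given in the sources used here. In 3089 of 3607 sets of 3 libraries above 0 (85.6%) 1 deposited value equalled the average of its 2 partners, to 0.0101 rpm or 0.1%, and 406 sets held identical values. Averaged values were set to missing, identical sets counted once (placed in library 1, and left out of the depth estimate), and sets at 0 in all 3 libraries were set to missing. The rule by which values were averaged is not given, so p-values may be too small. The 228 miRNAs that averaged 1 rpm or more were fitted on log2(rpm + 1) with limma 3.58.1 in R 4.3.3, with a variance trend, 15 groups in 1 fit and Benjamini-Hochberg adjustment within each comparison. A miRNA is called at an adjusted p under 0.05. Fold changes on this scale understate changes of low miRNAs. Each comparison was of group means at matched hours, change over time was an F-test of the 5 hours, and all other tests were two-sided.

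Correlations used 100000 permuted pairings (numpy 2.4.6, scipy 1.17.1), the ratio an exact permutation of oxygen labels within hours, and counting ratios an exact 95% interval that covers counting error only. Alternatives were scaling to the listed total or by median of ratios, other pseudocounts and filters, all deposited values kept, a replicate block, and leaving out each library, hour or group. The fit was tested on simulated data. The members, the lists and the clustered pairs were chosen with earlier results of these data known. Named miRNAs are the members, other rows of the same families, the 3 most alike per member, the clustered pairs, and the 3 lipid-list miRNAs called with the smallest adjusted p per mean over hours.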

Additional observations from a re-analysis of the deposited data

Results flagged for a closer look

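For miR-193a-3p the change from control differed between severe and moderate hypoxia, by a direct test of severe against moderate, at 0 h (-1.43 log2) and at 12 h (-0.98 log2). For miR-365-3p it differed at 24 h (3.37 log2), where the severe libraries were known to be high when the pair was chosen, so its p is no independent test. The limma adjusted p of each is given with its values above, and the 12 h difference did not pass after the listed total.

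At 12 h, the 5p strand of miR-193a reached 1.65 rpm under severe hypoxia, where the highest control value was 1.49 rpm, at 4 h. At the same hour miR-193b-3p reached 1.41 rpm under moderate hypoxia, where the highest control value was 1.26 rpm, at 8 h. At 12 h 1 read was worth 0.24 to 0.62 rpm in severe and 0.34 to 0.57 rpm in moderate libraries. Neither excess reaches 1 read, so no difference is read from it. These values were each deposited identically for all 3 libraries of their group, so each counts as 1 measured value of an unknown library.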

How the results depend on the processing

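Of 342 repeats of 43 results (not counting single libraries left out), 281 kept their direction and side of the threshold or moved less than the spread, 16 changed sign without passing on either side, 21 lost a call, 20 gained one, 3 values given without a test moved, and 1 such value changed sign. In 420 further repeats with 1 library left out, 23 lost a call and 0 gained one. These counts do not measure how stable the calls are. In each group 1 library per member was already missing as averaged, so leaving it out of the fit removed no value of that member. Many of the repeated results also had no call to lose. The results that lost calls are listed at the end of this section. Values are log2, limma unless stated, with the cause not tested except where fewer groups or hours are used. Scaled to the listed total, miR-193a-3p gave -0.77 for severe minus control at 24 h, -0.10 for moderate minus control at 8 h, -0.54 for severe minus moderate at 12 h, 0.41 for the moderate mean over hours and 0.68 for its range over time in severe hypoxia. miR-365-3p gave 1.09 for severe minus control at 24 h, -0.40 and -0.24 for moderate minus control at 4 h and 8 h, -0.82 for severe minus moderate at 4 h, -0.27 for the moderate mean and 1.21 for its range in severe hypoxia, and r of the pair was 0.14. With median-of-ratios scaling miR-193a-3p gave 0.75 for severe minus control at 12 h, 0.65 and -0.38 for moderate minus control at 0 h and 8 h, -0.51 for severe minus moderate at 12 h and 0.63 for its range in severe hypoxia. miR-365-3p gave 1.28 for severe minus control at 24 h, -0.45 and -0.49 for moderate minus control at 4 h and 8 h and 1.22 for its range in severe hypoxia, and r was 0.0921.

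With all deposited values kept, 8 results newly passed, since averaged values narrow the spread by construction: for miR-193a-3p 0.49 for severe minus control at 12 h, 0.50 and 0.80 for severe minus moderate at 4 h and 8 h and 0.20 for the moderate mean, and for miR-365-3p 0.50 and 0.94 for moderate minus control at 0 h and 12 h, 0.81 for severe minus moderate at 8 h and 0.79 for its range in severe hypoxia. With a minimum mean of 10 rpm miR-365-3p newly passed for moderate minus control at 12 h (0.95) and severe minus moderate at 8 h (0.81).

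Same-numbered libraries of the same hour were compared between oxygen levels. Their r was -0.256 to 0.468 with a median of 0.00905, and 13 of 45 were over 0.1. Whether replicate numbers pair libraries across hours within an oxygen level was not examined. With the replicate number as a block miR-365-3p newly passed for moderate minus control at 12 h (0.95), severe minus moderate at 8 h (0.83) and its range in severe hypoxia (0.79). The spread between hours in place of libraries ended the call of the moderate mean of miR-365-3p (-0.44, adjusted p = 0.773). Leaving out an hour, added after the data were seen, gave 0.49 without 8 h for the moderate mean of miR-193a-3p, and for miR-365-3p 0.69 and -0.0354 without 4 h or 24 h for the severe mean and -0.31, -0.29 and -0.14 without 4 h, 8 h or 24 h for the moderate mean. The pair's r was 0.49 without moderate hypoxia at 24 h, 0.54 without 8 h and 0.52 without 24 h.

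With 1 library left out, miR-193a-3p ranged from 0.94 to 1.12, -1.06 to -0.78 and 1.32 to 1.59 for moderate minus control at 0 h, 8 h and 12 h, from -1.39 to -0.57 for severe minus moderate at 12 h, and over ranges in time of 0.80 to 1.18 in control and 0.90 to 1.43 in severe hypoxia. miR-365-3p ranged from 0.76 to 1.19 for severe minus control at 12 h and -1.20 to -0.86 for moderate minus control at 8 h. A group left with 1 value was assumed to vary like the others. At 3 reads per library, the 24 h level of miR-365-3p in moderate hypoxia is the least precise of the values.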
